A study of Mus musculus with 6 samples.

Results

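The class 4 and class 7 semaphorins and the plexins that bind them were followed by name in the RNA of mouse osteoclasts and osteoclast precursors. The 9 genes were the ligands Sema4a, Sema4b, Sema4c, Sema4d and Sema7a and the receptors Plxnb1, Plxnb2, Plxnc1 and Plxnd1, and all 9 had a row among the 26529 genes of the deposited table. Both groups were wild-type (WT) C57BL/6 bone marrow-derived macrophages from mice aged 8 weeks, cultured with 20 ng/ml of the macrophage growth factor M-CSF and 10 ng/ml of RANKL, the cytokine that drives osteoclast formation. Osteoclasts (OC) were taken on day 6 of culture, in 3 libraries, and osteoclast precursors (OCP) on day 3, in 3 libraries. The series is named for Semaphorin 3A made by osteoclasts, and OC were set against OCP to see how semaphorin genes differ between the libraries labelled as these stages. The labels leave unsaid whether each replicate was a mouse or a culture of its own, so the p-values here speak only for the scatter among these libraries, possibly a technical one.

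Semaphorins are cell-surface or secreted guidance proteins that share a sema domain and act through plexins, receptors whose cytoplasmic part switches off small GTPases of the Ras family. Class 4 members span the membrane and can be shed, whereas Sema7a is held by a lipid (GPI) anchor. In bone, Sema4d made by osteoclasts is known to restrain bone formation through Plxnb1 on osteoblasts, where it activates RhoA.

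The libraries held between 33219178 and 42121216 reads assigned to genes. Of 10 markers of osteoclasts, all passed as lower in OC, and their summed level was 2730 to 2815 RPKM (reads scaled by exon length and library total) in OC libraries, against 5104 to 5261 RPKM in OCP libraries. Of 8 macrophage markers 6 were higher and 2 lower in OC, with sums of 1260 to 1340 RPKM in OC and 1229 to 1294 RPKM in OCP. Among the 6, Cx3cr1 and Mrc1 reached 1 RPKM in their OC libraries alone. Both groups therefore expressed osteoclast genes strongly, with the libraries labelled OC at the lower level, and the part of these markers in the results on semaphorins was not tested. The marker levels thus go against the order of stages that the labels give, and every direction given here would turn if the labels were exchanged. Markers of lymphocytes, which also make semaphorins, were low. The T cell list summed to 1.30 to 1.39 RPKM in OC and 0.101 to 0.270 RPKM in OCP, with Cd3d, Cd3e, Cd3g, Cd2 and Cd8a each at 0 in at least 4 of the 6 libraries and Lck at 1.18 to 1.27 RPKM in OC and 0.0743 to 0.206 RPKM in OCP. Lck, the only gene of that list tested, met the filter through its OC libraries alone and passed as higher (limma adjusted p = 2.2e-05). The B cell list summed to 0.368 to 0.453 RPKM in OC and 0.158 to 0.189 RPKM in OCP, with every measured gene under 1 RPKM in every library. Within it Cd22 had a mean of 0.266 RPKM in OC and 0.0703 RPKM in OCP and was higher in OC in the limma fit without the filter (adjusted p = 0.0088). The dendritic cell list had 2 genes tested and none called, the endothelial list 1 tested and none called and the stromal list none tested. Of the neutrophil list 3 genes were tested and 3 were higher, with sums of 47.8 to 52.4 RPKM in OC and 34.0 to 37.6 RPKM in OCP. In bulk samples, fewer cells of a type and less RNA per cell cannot be told apart.

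Of 3 members, the outermost start given in the table is also a RefSeq transcription start. For that reason the 250 bases upstream of it (GRCm38.p6, RefSeq) are shown for these 3. As described below, they are a ligand that rose, a ligand that fell and a receptor that fell, and no receptor that rose is among them. The windows are chr3:88461183-88461432 on the minus strand for Sema4a, chr9:57939862-57940111 on the plus strand for Sema7a and chr6:115995006-115995255 on the minus strand for Plxnd1. Capitals mark matches, on either strand, to 4 motifs, AP-1 as TGANTCA, PU.1 as GAGGAAG, NFAT as TGGAAA and MITF as TCACGTG, none of which overlapped another here.
Sema4a: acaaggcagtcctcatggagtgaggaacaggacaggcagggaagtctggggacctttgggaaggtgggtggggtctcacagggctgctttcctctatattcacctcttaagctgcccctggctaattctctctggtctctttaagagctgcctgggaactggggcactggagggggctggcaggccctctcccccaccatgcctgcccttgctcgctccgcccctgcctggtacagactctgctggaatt
Sema7a: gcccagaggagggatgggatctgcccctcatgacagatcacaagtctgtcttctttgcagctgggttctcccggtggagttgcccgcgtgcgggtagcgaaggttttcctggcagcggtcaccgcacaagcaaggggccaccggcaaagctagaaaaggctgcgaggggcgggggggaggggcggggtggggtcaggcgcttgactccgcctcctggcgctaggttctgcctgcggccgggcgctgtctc
Plxnd1: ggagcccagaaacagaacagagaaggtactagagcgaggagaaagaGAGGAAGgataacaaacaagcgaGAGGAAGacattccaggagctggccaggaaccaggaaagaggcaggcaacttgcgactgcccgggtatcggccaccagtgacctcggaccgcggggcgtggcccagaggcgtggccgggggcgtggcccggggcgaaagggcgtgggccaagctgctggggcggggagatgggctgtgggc
The Plxnd1 window holds the PU.1 letters at 2 places, starting 204 and 181 bases upstream of the start. Neither the Sema4a nor the Sema7a window holds any of the 4 motifs. Among 32851 RefSeq windows of the same length, 10.6% hold the PU.1 letters, 6.75% the AP-1 letters, 18.6% the NFAT letters and 3.13% the MITF letters. Each of the 9 members had at least 1 RefSeq window, 17 in all. In those, PU.1 letters also occurred at 2 places upstream of Plxnc1, at 1 start of Sema4a and at both starts of Sema4b, AP-1 letters at 1 start each of Sema4c and Sema4d, and MITF letters at 1 start of Sema4b. A match is only a run of letters.

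Sema4d and Sema7a, the most abundant ligands, fell in OC, and Sema4a rose. Among the receptors Plxnd1 fell while Plxnb2 rose, Plxnc1 was higher in OC but met the filter on low values through its OC libraries alone, and Plxnb1 was close to absent in both groups. Tests covered genes that reached 1 RPKM in 3 or more libraries and ran with limma on log2(RPKM + 1), with p-values adjusted over all 12301 such genes by the Benjamini-Hochberg method and 0.05 as the threshold. Plxnb1 failed this filter, and of the other 8 members 3, Plxnc1 included, passed as higher, 4 as lower and 1 did not pass. Across all tested genes 55.6% passed, 23.5% as higher and 32.1% as lower, so passing the threshold is common in this comparison. The OC and OCP values did not overlap in 7 of the 8 tested members, as in 62.7% of all tested genes. None of the 8 reached a 2-fold difference on this scale. Their median log2 fold change was -0.05, and that of all tested genes was also -0.05.

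**Figure D1:**
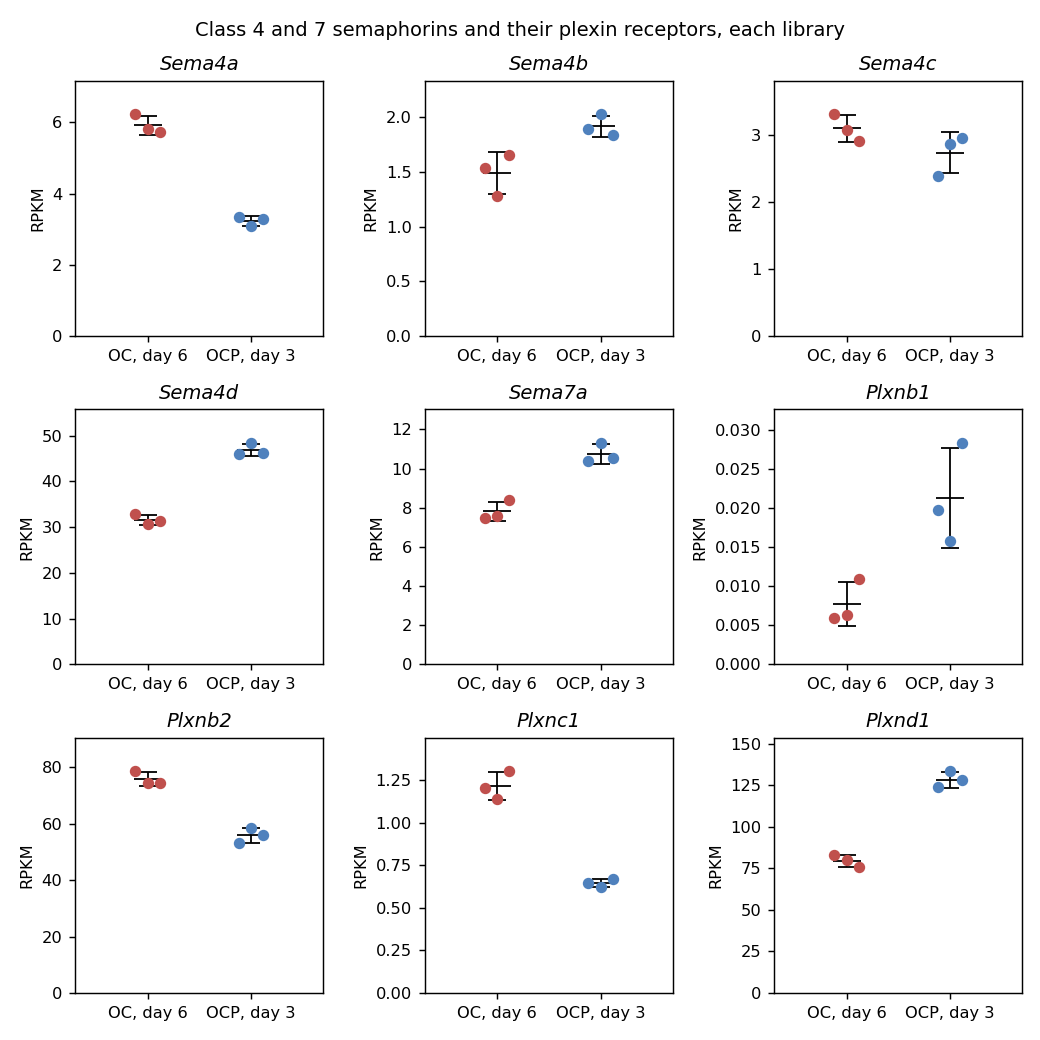
RPKM of each member in the 3 OC libraries (red, left) and the 3 OCP libraries (blue, right), with the mean and SD in black. Each axis starts at 0 and has its own scale, from under 0.03 RPKM for Plxnb1 to 134 RPKM for Plxnd1, and only the Sema4c groups overlap.

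Sema4d, also called CD100, is a transmembrane semaphorin first known from lymphocytes and, in bone, from osteoclasts. Its gene lies on the minus strand of chromosome 13 (51701246 to 51793747 in the table, GRCm38). It had 32.8, 30.8 and 31.3 RPKM in OC libraries, from 7408, 6597 and 7687 reads, against 46.0, 48.4 and 46.1 RPKM in OCP libraries, from 12494, 12404 and 10933 reads. Every OC library was below every OCP library. The mean was 31.6 ± 1.06 RPKM in OC and 46.9 ± 1.37 RPKM in OCP (SD, n = 3 each), a ratio of means of 0.675, and Sema4d fell by 0.55 on the log2 scale (SE 0.05, limma adjusted p = 3.8e-05). It was an abundant transcript, at percentile 89.7 of the protein-coding genes in OC and 92.6 in OCP.

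Sema7a is the GPI-anchored ligand of Plxnc1 and of an integrin that contains the alpha-1 and beta-1 chains. On the plus strand of chromosome 9 (57940112 to 57962865), it had 7.48, 7.59 and 8.38 RPKM in OC libraries, against 10.4, 11.3 and 10.5 RPKM in OCP libraries. The groups lay apart, with a ratio of means of 0.727, and Sema7a fell by 0.41 on the log2 scale (SE 0.06, limma adjusted p = 0.00069).

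Sema4a, a costimulatory ligand of T cells made by dendritic cells and macrophages, went the other way. On the minus strand of chromosome 3 (88435959 to 88461182), it had 6.23, 5.82 and 5.72 RPKM in OC libraries, against 3.35, 3.08 and 3.29 RPKM in OCP libraries. All OC values were above all OCP values. The ratio of means was 1.83 and the log2 fold change 0.71 (SE 0.06, limma adjusted p = 3.7e-05). Of the 8 macrophage markers 6 were also higher in OC, while Csf1r and Cd68 were lower. Among the 6, Cd14 had a mean of 88.5 RPKM in OC and 36.7 RPKM in OCP. Cx3cr1 and Mrc1, also among the 6, met the filter through their OC libraries alone. The dendritic cell markers summed to 2.73 to 3.20 RPKM in OC and 3.30 to 4.32 RPKM in OCP, and neither of the 2 tested passed. The part of either cell type in the level of Sema4a was not tested.

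The remaining ligands were low and changed less than the other ligands on the log2(RPKM + 1) scale. Sema4b, on chromosome 7 (80186841 to 80226527), had 1.53, 1.28 and 1.65 RPKM in OC libraries, against 1.89, 2.03 and 1.84 RPKM in OCP libraries. With a ratio of means of 0.777, it passed narrowly, falling by 0.23 on the log2 scale (SE 0.08, limma adjusted p = 0.034). That call was lost without OC replicate 1 or 2, without any 1 of the 3 OCP replicates and with no filter on low values, where the adjusted p lay between 0.062 and 0.10, and with a pseudocount of 0.01 it fell by 0.37. Sema4c, a ligand of Plxnb2 on chromosome 1 (36548639 to 36558349), had 3.32, 3.08 and 2.91 RPKM in OC libraries, against 2.40, 2.87 and 2.96 RPKM in OCP libraries. Its groups overlapped and it did not pass (log2 fold change 0.13, 95% interval -0.05 to 0.32, limma adjusted p = 0.18). Of its exon bases 7.27% are shared with the antisense gene D430040D24Rik, and whether counting used strand is unknown.

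Plxnd1, the receptor of Sema3e and of Sema4a, known for patterning of blood vessels, was the most abundant of the 9 in both groups by mean RPKM. On the minus strand of chromosome 6 (115954811 to 115995005), it had 82.9, 79.8 and 75.6 RPKM in OC libraries, against 124, 134 and 128 RPKM in OCP libraries. The groups lay far apart relative to their spread, at means of 79.5 ± 3.67 RPKM in OC and 128 ± 4.90 RPKM in OCP (SD, n = 3 each). The log2 fold change was -0.69 (SE 0.05, limma adjusted p = 2e-05).

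Plxnb2 is a receptor of class 4 semaphorins that also binds angiogenin. On the minus strand of chromosome 15 (89155549 to 89171120), it had 78.7, 74.5 and 74.3 RPKM in OC libraries, against 53.1, 58.6 and 56.0 RPKM in OCP libraries. Every OC library was above every OCP library, with a ratio of means of 1.36 and a log2 fold change of 0.43 (SE 0.05, limma adjusted p = 0.00021).

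Plxnc1, the plexin that binds Sema7a, was low. On chromosome 10 (94790866 to 94944578), it had 1.21, 1.14 and 1.30 RPKM in OC libraries, against 0.645, 0.620 and 0.670 RPKM in OCP libraries. It met the filter through the OC libraries alone. The ratio of means was 1.89 and the log2 fold change 0.43 (SE 0.07, limma adjusted p = 0.00089). The size of that change depended on the scale at this level, being 0.82 with a pseudocount of 0.1, 0.90 with 0.01, 0.96 in the voom fit on recovered reads and 0.27 after quantile normalization, and it passed in each. The unclassified gene model Gm48718 on the same strand shares 1.47% of its exon bases.

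Plxnb1, the receptor through which Sema4d acts on osteoblasts, gave 2, 2 and 4 reads in OC libraries, against 8, 6 and 10 reads in OCP libraries, over 9592 exon bases on chromosome 9 (109095389 to 109119917). These reads are worth 0.00596, 0.00628 and 0.0109 RPKM in OC and 0.0198, 0.0158 and 0.0284 RPKM in OCP. A count of 3 reads is worth 0.00743 to 0.00942 RPKM here, so 2 of the OC libraries were under that floor and all OCP libraries were above it. The summed rates gave an OC to OCP ratio of 0.372, with an exact 95% interval of 0.144 to 0.855 that covers counting error only. That interval takes each read as an independent count. All the counts are even, as were those of Erbb2 and Sema3e, so the reads may not be independent. The interval would then be too narrow and the floor too low, and an interval below equal rates cannot be relied on. Over the 6 samples an exact two-sided permutation test gave p = 0.1, the smallest it can give, and in the limma fit without the filter Plxnb1 did not pass (adjusted p = 0.28). The antisense gene Gm7628 shares 2.68% of its exon bases.

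**Figure D2:**
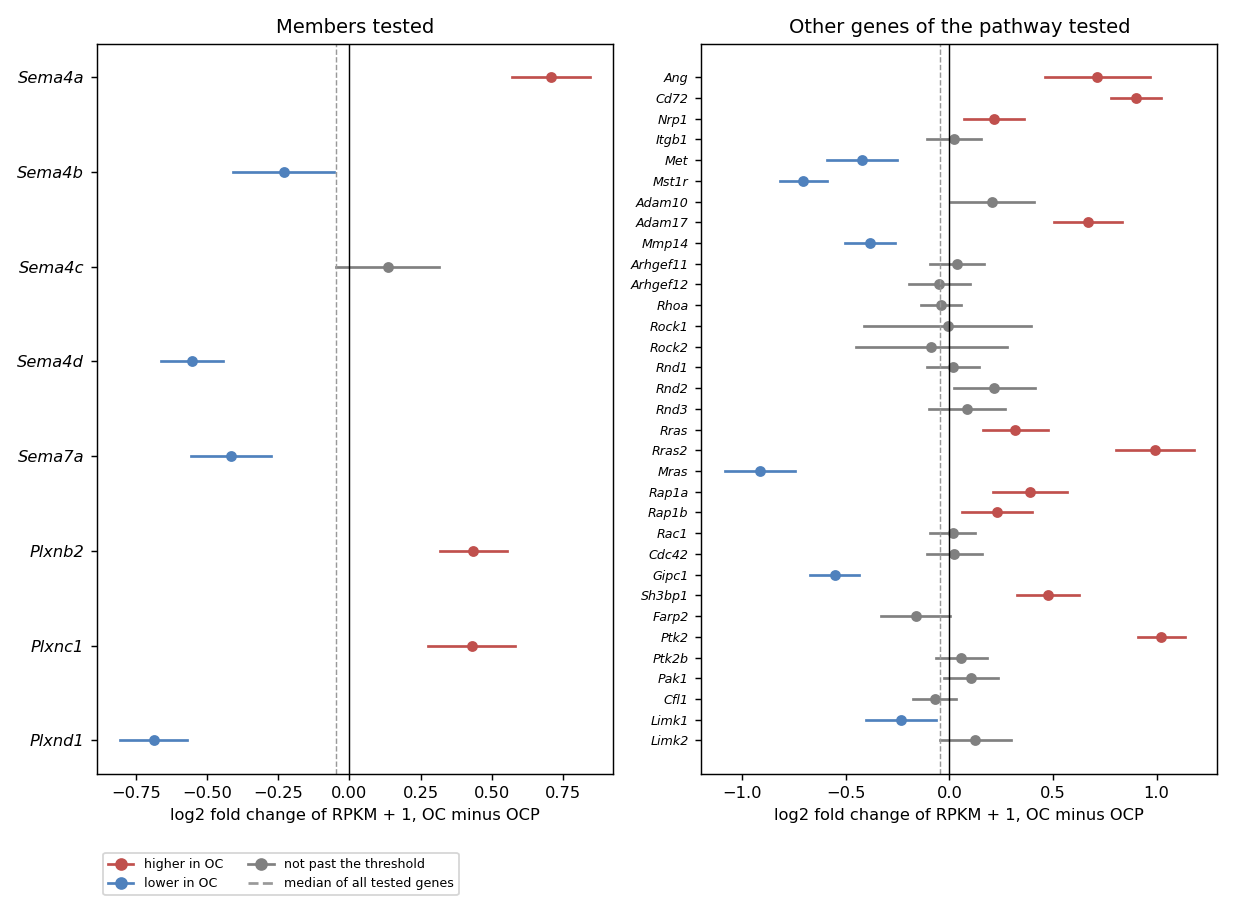
Log2 fold change of RPKM + 1, OC minus OCP, with 95% intervals, for the 8 tested members (left) and the 33 tested genes of the wider pathway list (right). Red genes were higher and blue genes lower at an adjusted p under 0.05, grey genes did not pass, and the dashed line is the median of all tested genes at -0.05. Members run from -0.69 for Plxnd1 to 0.71 for Sema4a.

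Ordered by mean level per kb of exon, OC and OCP had the same sequence of the 9 genes: Plxnd1, Plxnb2, Sema4d, Sema7a, Sema4a, Sema4c, Sema4b, Plxnc1 and Plxnb1. In OCP no neighbours in that order overlapped. In OC the values of Plxnd1 and Plxnb2 overlapped, and so did those of Sema4b and Plxnc1. Put as shares of the summed RPKM of the 6 class 4 and 7 semaphorins in the table, Sema4d made up 62.7% ± 0.669 in OC and 71.1% ± 0.405 in OCP (SD, n = 3 each). Sema4a made up 11.7% ± 0.361 in OC and 4.92% ± 0.359 in OCP, while the share of Sema7a was 15.5% ± 1.08 in OC and 16.3% ± 0.258 in OCP, with overlapping values. The sum itself was 50.5 ± 1.44 RPKM in OC and 65.9 ± 2.04 RPKM in OCP. Among all 9 plexins in the table, Plxnd1 held 45.0% ± 0.521 in OC and 62.2% ± 0.207 in OCP, and Plxnb2 held 43.0% ± 0.651 in OC and 27.0% ± 0.282 in OCP.

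**Figure D3:**
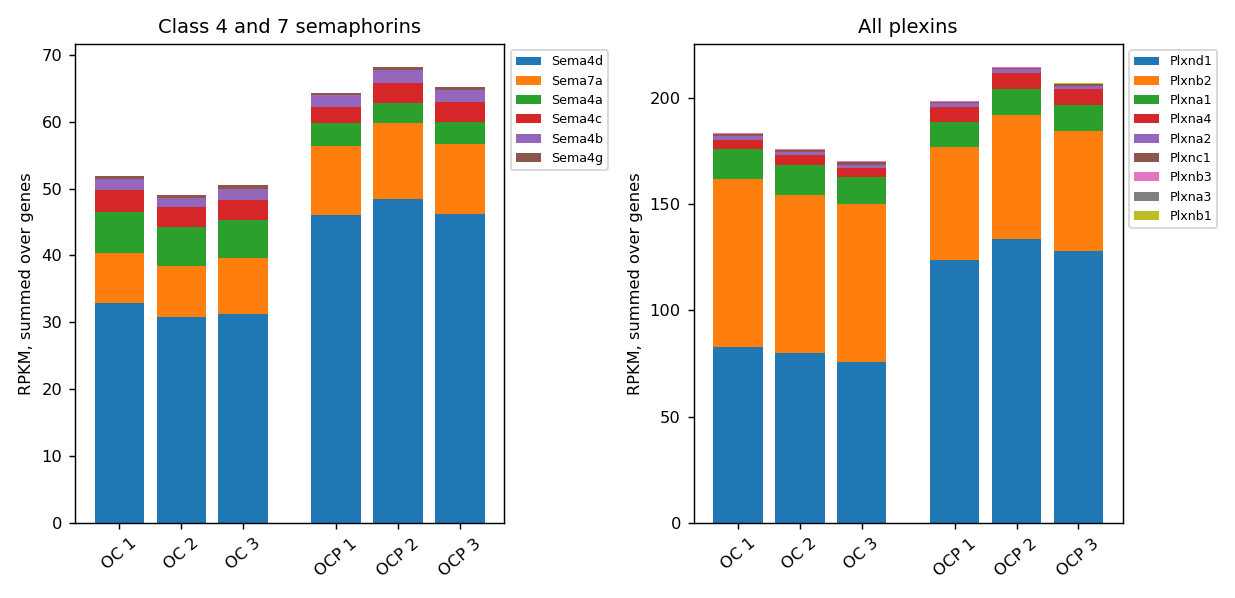
Summed RPKM of the 6 class 4 and 7 semaphorins (left) and of all 9 plexins (right) in each library, OC libraries left of OCP libraries, with colours for genes. The semaphorin sums lie at 49.0 to 51.9 RPKM in OC and 64.3 to 68.2 RPKM in OCP, and Plxnb2 takes a larger part of the plexin bar in OC.

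Ratios between members within a library do not depend on how libraries are scaled. The ratio of Plxnd1 to Plxnb2 was 1.05, 1.07 and 1.02 in OC libraries, against 2.33, 2.28 and 2.29 in OCP libraries. The most abundant receptor thus stood at more than 2 times the level of the next in OCP and at most 1.07 times in OC. Sema4d to Sema4a was 5.27, 5.29 and 5.47 in OC libraries, against 13.7, 15.7 and 14.0 in OCP libraries. Sema4d to Plxnb2 was 0.417, 0.413 and 0.421 in OC libraries, against 0.867, 0.827 and 0.824 in OCP libraries. For the pair of Sema7a and its receptor Plxnc1 the ratio was 6.20, 6.65 and 6.43 in OC libraries, against 16.1, 18.2 and 15.7 in OCP libraries. Of 8 ratios computed, 7 had groups that did not overlap, the exception being Sema4d to Plxnb1. That ratio rests on few reads, as does Plxnb1 to Plxnb2 among the 7. Most of the ratios pair a member that fell with a member that rose, so their separation largely follows from the single-gene values. How often other gene pairs lie apart was not computed. An exact two-sided permutation test over the 6 samples gave p = 0.1 for those 7, the smallest it allows, and p = 0.2 for the exception (0.11 and 0.2 after Benjamini-Hochberg adjustment over the 8).

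**Figure D4:**
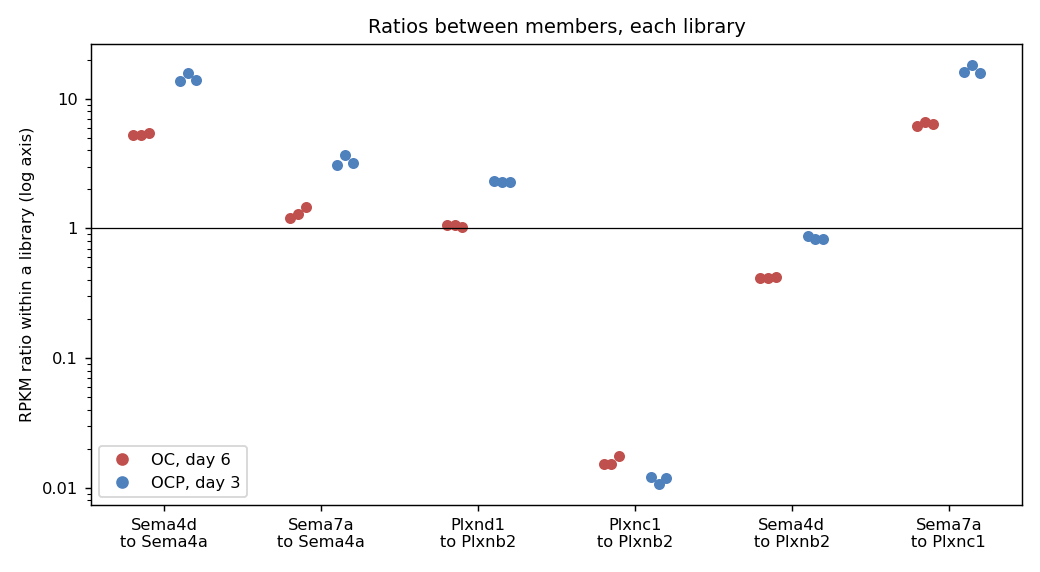
RPKM ratios between 2 members within each library on a log axis, OC (red) left of OCP (blue), 3 libraries each. The horizontal line is equal RPKM. Plxnd1 to Plxnb2 sits at 1.02 to 1.07 in OC and 2.28 to 2.33 in OCP, and 2 ratios with Plxnb1 are left out because they rest on few reads.

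Around the members, a list of 44 other genes of the pathway (further ligands and receptors, coreceptors, sheddases and effectors) had 42 in the table and 33 tested. Of these 10 were higher, 6 lower and 17 did not pass, which makes 48.5% called, against 55.6% of all tested genes. The median log2 fold change of the list was 0.04, against -0.05 for all tested genes.

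Cd72, a receptor of Sema4d on B cells and other leukocytes that carries an inhibitory motif, had the highest mean over all 6 libraries among the other receptors, though Itgb1 was above it in OCP, and the largest log2 fold change among the 3 tested. It had 98.9, 102 and 97.0 RPKM in OC libraries, against 50.1, 56.0 and 52.4 RPKM in OCP libraries, with a log2 fold change of 0.90 (SE 0.05, limma adjusted p = 5.2e-06). The OC values were all above the OCP values. The B cell list, at under 1 RPKM in sum, was higher in OC as well, as given above, and its part in the level of Cd72 was not tested. Nrp1 also passed as higher, while Itgb1, the beta-1 integrin chain of the Sema7a receptor, had means of 61.3 RPKM in OC and 60.4 RPKM in OCP and did not pass. Its partner Itga1 was under the filter, at 0.988 ± 0.151 RPKM in OC and 0.614 ± 0.162 RPKM in OCP.

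The enzymes that release class 4 semaphorins from the cell surface moved in different directions. Adam17, which cleaves Sema4d on platelets, had 24.2, 23.6 and 25.8 RPKM in OC libraries, against 16.6, 13.8 and 15.0 RPKM in OCP libraries (log2 fold change 0.67, SE 0.07, limma adjusted p = 0.00013). Mmp14, a membrane metalloproteinase that cleaves SEMA4D of human tumour cells, had 84.7, 77.4 and 78.4 RPKM in OC libraries, against 101, 105 and 109 RPKM in OCP libraries (log2 fold change -0.38, SE 0.05, limma adjusted p = 0.00046). Neither gene's groups overlapped. Adam10 did not pass (log2 fold change 0.21, limma adjusted p = 0.072), though its OC values also lay above its OCP values, narrowly.

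Both tested coreceptors of plexin-B were lower, as were 32.1% of all tested genes. The receptor tyrosine kinase Mst1r, also called RON, had means of 7.51 ± 0.241 RPKM in OC and 12.9 ± 0.249 RPKM in OCP, and Met, the receptor of hepatocyte growth factor, had 5.61 ± 0.187 RPKM in OC and 7.87 ± 0.786 RPKM in OCP (SD, n = 3 each). Their limma adjusted p-values were 1.4e-05 and 0.0016. Erbb2 was under the filter.

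Of 24 tested effectors 6 rose, 3 fell and 15 did not pass, so that 37.5% were called, against 55.6% of all tested genes. The largest log2(RPKM + 1) fold change was in Ptk2, which encodes focal adhesion kinase, at 13.6 ± 0.0844 RPKM in OC and 6.21 ± 0.241 RPKM in OCP (log2 fold change 1.02, limma adjusted p = 2e-06), whereas by the ratio of means Rras2, at 4.02, changed more than Ptk2, at 2.20. The most abundant, the actin-severing cofilin Cfl1, had 556 ± 16.2 RPKM in OC and 584 ± 20.6 RPKM in OCP and did not pass. Named after their values were seen, the guanine nucleotide exchange factors Arhgef11 and Arhgef12, which link class B plexins to RhoA, did not pass, at 5.95 and 4.11 RPKM in OC and 5.79 and 4.29 RPKM in OCP, and neither did Rhoa itself. Rras, Rras2, Rap1a and Rap1b, small GTPases on which the plexin GAP domain acts or that are close kin of such substrates, rose, with log2 fold changes of 0.32, 0.99, 0.39 and 0.23, while Mras fell by 0.91. These were likewise named after their values were seen, and Rras2 met the filter through its OC libraries alone. Rras2 had 2.21, 1.79 and 1.89 RPKM in OC libraries, against 0.581, 0.425 and 0.460 RPKM in OCP libraries. Mras had 2.24, 2.46 and 2.32 RPKM in OC libraries, against 5.38, 5.76 and 4.77 RPKM in OCP libraries, so neither gene's groups overlapped. Gipc1, an endocytic adaptor of Plxnd1, was also named after its values were seen. It had 37.0, 34.8 and 34.1 RPKM in OC libraries, against 50.2, 54.5 and 52.0 RPKM in OCP libraries (log2 fold change -0.55, limma adjusted p = 6.5e-05).

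Among other ligands of these receptors, Ang, which encodes angiogenin, was the only one tested, met the filter through its OC libraries alone and was higher in OC, at 1.60 ± 0.259 RPKM in OC and 0.589 ± 0.193 RPKM in OCP (limma adjusted p = 0.00086). It overlaps Rnase4 on the same strand, so its reads are uncertain. Sema5a, a ligand of Plxnb3, which is not a member, was under the filter and was named after its values were seen. It had 37, 38 and 44 reads in OC libraries and was listed at 0 in all 3 OCP libraries. Its summed rate in OC, at a mean of 0.103 RPKM, stood 44.2-fold above a floor of 3 reads in the OCP libraries together. That value takes the OC reads as exact and each read as an independent count, and it leaves out differences between replicates. Sema3e, the secreted ligand of Plxnd1, had 2, 0 and 0 reads in OC libraries and 10, 4 and 4 reads in OCP libraries. These counts too are all even, so the reads may not be independent.

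By a rule that compared the 6 values of log2(RPKM + 1), each centred on its own mean, over 4140 protein-coding genes with a mean of at least 10 RPKM, the profiles most like that of Sema4d were those of Ccdc130, Ogdh and Zswim4. Their root mean square distances were 0.0161, 0.0167 and 0.0173 on the log2 scale. Those most like Plxnd1 were Ddx56, Ckap4 and Use1, at 0.00641, 0.0147 and 0.0196. Among those most like Plxnb2 were Ap2a2 and Unc93b1, at 0.0186 and 0.0244. The log2 fold changes of Ccdc130, Ogdh and Zswim4 were -0.55, -0.55 and -0.57, beside -0.55 for Sema4d. That closeness follows from the rule, which chose the genes on the same values. The points of each profile are the same 6 libraries in 2 groups.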

How the data were processed

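The deposited table holds RPKM values, as its name says, which the authors scaled by each gene's exon length and each library's total. Total RNA (2 ug, TRIzol) went into stranded mRNA libraries, per the labels' protocols. Per the submitters' processing notes, Trimmomatic 0.36, STAR 2.5.3a and featureCounts were used. The notes name the human build GRCh38, but the table holds mouse genes, of which 84.1% had the start and end of GENCODE M21 (GRCm38). Strand and multi-mapping settings are not stated.

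RPKM times length gave whole reads for 100% of values within 0.01 reads. Replicates of a group differed by more than read sampling gives (chi-square over its degrees of freedom 4.88 to 19.6). Groups were compared with limma 3.58.1 (R 4.3.3; trend and robust options) on log2(RPKM + 1), two-sided, without a replicate block. Ratios used Python 3.11.15. The limma steps were run on simulated reads with known folds and a fixed scatter between replicates, which checks the steps and not these results.

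The members and lists were chosen with earlier results of these data known. Named genes were the members and, per role of the pathway list, the most changed called gene and the most abundant gene; Nrp1, Itgb1, Itga1, Adam10, Met, Erbb2, Sema3e and the marker genes with values fall outside that rule and were named after their values were seen. TMM factors came from recovered reads. The planned protein comparison was not made. A gene that the rule on similar profiles named is not reported here.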

Additional observations from a re-analysis of the deposited data

How the results depend on the processing

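Of 7 called members, 6 kept their direction and their side of the threshold under each of the alternatives run (smaller pseudocounts, dropping the filter, a stricter filter of 5 RPKM on the mean where it kept the gene, TMM factors, quantile normalization, limma without trend and robust options, voom on recovered reads, protein-coding genes alone, the replicate block and leaving out each library). Sema4b lost its call in 7 of 15: its log2 fold change was -0.23 with the replicate block and with no filter (adjusted p 0.064 and 0.069). With 1 library left out it was -0.28 to -0.17, and 5 of those 6 fits lost the call, the exception being the fit without OC replicate 3, at -0.28. The SE was larger with the block and more genes were tested without the filter; the cause of the other losses was not tested. Sema4c and Plxnb1 passed in none of theirs, and no member reversed. The stricter filter tested 7228 genes, against 12301, and left 1645 higher and 2904 lower, against 2889 and 3954. Under TMM scaling 3220 genes were higher and 3510 lower, against 2889 and 3954.

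Libraries with the same replicate number had correlated deviations of -0.11, 0.14 and 0.01, so the number was not taken to pair them. The block gave 2827 genes higher and 3851 lower, and OC replicate 3 correlated best with OCP replicate 1 (0.26). Read depth limits what can be said of Plxnb1, at 2 to 10 reads a library.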
